A study of Mus musculus with 3 samples.

Results

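Mouse embryonic stem (ES) cells were compared with mouse embryonic fibroblasts (MEF) gene by gene, on 1 array of each. Both cell samples carried a Nanog-GFP reporter, a green fluorescent protein that reports activity of the pluripotency gene Nanog. The series design calls the MEF wild type for p53. Nanog-GFP MEF that the labels call p53-null, hybridised on another slide, are given beside them as a further fibroblast sample. The labels used here give no strain, passage, embryo age or culture condition for these cells, and do not say whether the ES cells were grown on feeder cells. Total RNA was labelled with the dye Cy3 and read as fluorescence on 1-colour Agilent whole mouse genome arrays. A gene entered the comparison if its probe was well above background on at least 1 of the ES cell and MEF arrays, which held for 18630 of 27348 gene labels. There were no replicates, so every difference describes 1 array against 1 array and carries no test.

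ES cells are derived from the inner cell mass of the early embryo. They renew themselves without limit, can form every tissue of the body, and are held in that state by a core of transcription factors and by signals such as LIF, BMP, FGF and Wnt. MEF are connective tissue cells of the later embryo that build and remodel extracellular matrix and divide for a limited number of passages. They are the usual starting cells for reprogramming, in which pluripotency factors turn fibroblasts into induced pluripotent stem cells.

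Signals are given in fluorescence units after background subtraction by the scanner software, and folds after each array was scaled to its 75th percentile. That percentile was 834 units in ES cells, 829 in MEF and 1040 in p53-null MEF. Of 43379 spots, 27954 stood well above background in ES cells, 26462 in MEF and 26198 in p53-null MEF, and none was saturated. The lowest signals marked as well above background were 10.1, 12.4 and 16.0 units. A fold written as "at least" means that the dimmer array was not well above background, so its own signal or that lowest signal, whichever was larger, was used in its place. If its own signal was larger, the fold is simply the measured one, not a strict minimum. In every list, a gene well above background on 1 array alone could not come out lower on that array. Where a gene had several probes, the brightest was used, and disagreements are given beside the gene. For some genes named here a dimmer probe gave a smaller difference in the same direction, such as 1.89 (Chd7), 1.27 (Epas1), -1.86 (Hoxb6), -3.47 (Igfbp5) and -1.57 (Col1a2) on the log2 scale. The scanner software's error model gave 0.20 on the log2 scale for a difference between bright signals, and repeated spots of 1 probe varied by a median of 3.32% (SD, 166 probes) in ES cells and 4.32% in MEF.

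The markers fitted the labels. Pou5f1, the gene for the pluripotency factor Oct4, gave 9504 units in ES cells, 2.68 in MEF and 3.43 in p53-null MEF, and Utf1, a chromatin protein of pluripotent cells, gave 3269 units in ES cells, 28.0 in MEF and 10.4 in p53-null MEF. All 12 fibroblast markers were lower by 2-fold or more in ES cells, and their summed signal was 39578 units in ES cells, 857440 in MEF and 727915 in p53-null MEF. Of those 12, 11 were still well above background in ES cells, among them the collagen gene Col1a2 at 2568 units. The part that fibroblast or feeder RNA in the ES cell sample has in these signals was not tested. In such bulk samples fewer cells of a type and less RNA per cell cannot be told apart.

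Markers of other cell types were read on both arrays. The 20 macrophage markers on the array summed to 1483 units in ES cells, with 10 well above background, and to 2939 in MEF, with 13. The defining macrophage gene Adgre1 gave 2.32 units in ES cells and 13.0 in MEF, and the colony stimulating factor receptor Csf1r gave 3.49 and 39.3. Of 16 measured macrophage markers, 4 were higher by 2-fold or more in ES cells (Laptm5, Mrc1, Itgam and Cd68) and 6 lower. Laptm5, a lysosomal protein of blood cells, gave 619 units in ES cells, 10.3 in MEF and 4.24 in p53-null MEF, at least 49.7-fold higher. The lysozyme gene Lyz2 gave 62.2 units in ES cells, 1980.4 in MEF and 126 in p53-null MEF, 32.0-fold lower. Another Lyz2 probe differed by -0.86 on the log2 scale, within 2-fold. Skeletal muscle markers summed to 6426 units in ES cells and 28062 in MEF. Most of the MEF sum came from the actin genes Actc1 (195 and 19319) and Acta1 (124 and 6374), and most of the ES cell sum from Mylpf (4203 and 162). Of 18 measured muscle markers, 5 were higher by 2-fold or more in ES cells and 10 lower. Bone and cartilage markers summed to 55045 units in ES cells and 125448 in MEF. Of these, Spp1, the osteopontin gene, which is also in the naive pluripotency list, gave 50572 and 110938. Endothelial markers summed to 9643 in ES cells and 4178 in MEF, and neural and glial markers to 16606 and 8500, with 6 of 17 measured markers higher by 2-fold or more and 6 lower. The neurofilament gene Nefl gave 7323 units in ES cells and 77.7 in MEF, and the glial calcium-binding protein gene S100b 12.3 and 3664. The part of such cells in the differences was not tested. The 20 expression references summed to 906124 units in ES cells, 903889 in MEF and 1134810 in p53-null MEF. Of these, 4 were higher by 2-fold or more in ES cells and 3 lower, among them the transferrin receptor gene Tfrc (15.3-fold higher) and B2m (18.1-fold lower).

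Of the 18630 genes, 2434 (13.1%) were higher by 5-fold or more in ES cells and 2424 (13%) lower by 5-fold or more. At 2-fold, the threshold used for the gene lists, 6089 (32.7%) were higher and 5050 (27.1%) lower. At least 100-fold higher were 125 genes and lower by 100-fold or more 132. The median of all genes was 0.20 on the log2 scale, so differences of single genes are read against that shift. It was 0 with median scaling or cyclic loess and 0.44 with scaling on spike-in spots. The shares of 32.7% and 27.1% are the background for every count of list members given here. Of the lists, the general pluripotency network, naive pluripotency, epithelial regulators, germ line genes and mitosis had the highest medians. That order counts bounds at their value: over genes measured on both arrays the median was 6.77 for the network, 2.20 for naive pluripotency, 2.62 for epithelial regulators, 3.12 for germ line genes and 3.20 for mitosis, and primed epiblast genes (3.81) came second. Apart from the fibroblast markers, collagens, matrix glycoproteins, secreted cytokines, caveola and surface genes, and matrix proteases had the lowest, bounds included.

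**Figure D1:**
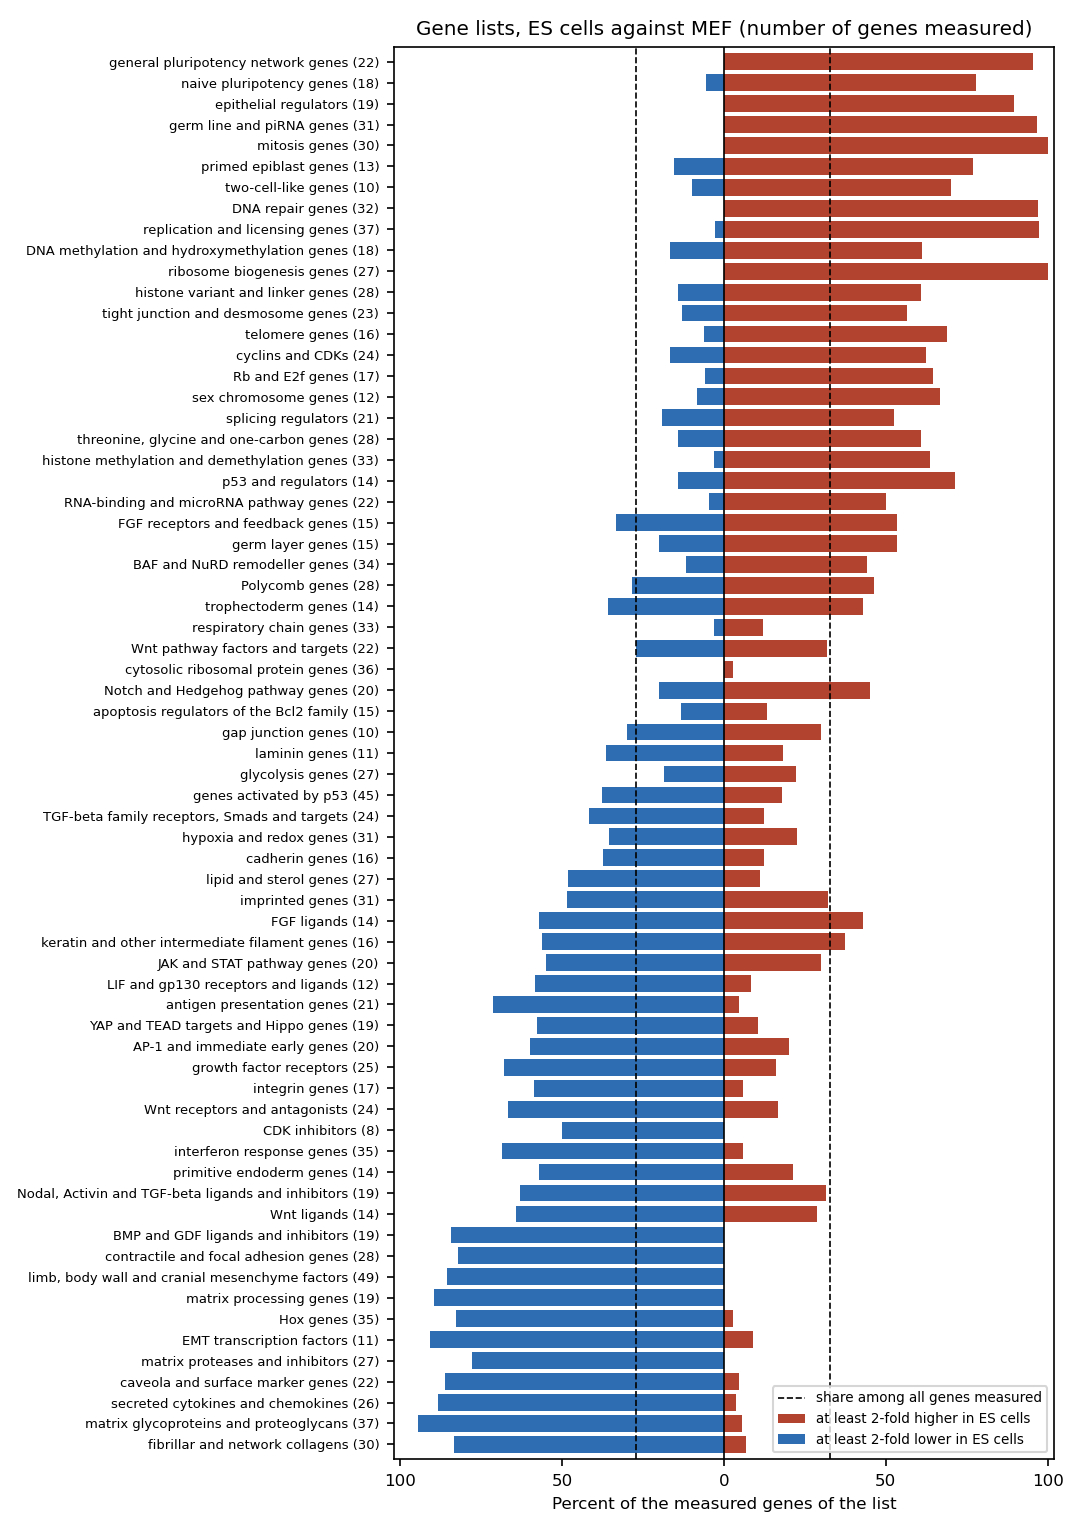
Each bar gives the percent of measured genes in a list that were higher by 2-fold or more (right, red) or lower (left, blue) in ES cells than in MEF, 1 array each, with lists ordered by their median log2 difference. The dashed lines mark the shares among all genes, 32.7% and 27.1%. By the brightest probe of each gene, all 30 mitosis genes and all 27 ribosome biogenesis genes were higher by 2-fold or more, while 36 ribosomal protein genes held 1.

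The core factors Oct4 and Sox2 are known to bind a composite element in which a Sox motif lies beside an octamer. The arrangement TTGT, any base, then ATGCAAA (together TTGTNATGCAAA, on either strand, which also contains most of an octamer) was searched in the 250 bases before each gene start in RefSeq, build GRCm38.p6. It occurred in 9 of 27025 genes (0.0333%), of which 5 were measured. Those 5, named after their values were seen, differed by 9.45 (Pipox), 9.32 (Nanog, a bound), 1.74 (Nrarp, a bound), 0.52 (Exoc1) and -2.34 (Idua) on the log2 scale. So the genes with the element covered the range from strongly higher to lower, and the 2 that were furthest apart between the arrays are shown here with the element in capitals. Nanog, a gene of the plus strand, gave 7946 units in ES cells, 6.44 in MEF and 9.74 in p53-null MEF. It has the element 75 bases before the gene start, in the window chr6:122707239-122707488. Pipox, the gene for an enzyme that oxidises sarcosine and pipecolic acid, gave 11508 units in ES cells, 16.3 in MEF and 16.0 in p53-null MEF. It lies on the minus strand and has the element 194 bases before the start, in the window chr11:77893873-77894122. In both, the capitals are the reverse complement of the letters searched, so the element lies on the strand opposite to the gene. Positions and strands given with promoters, here and below, are those of the 250-base window and of the gene. A match of letters describes the sequence and is not a binding site.

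Nanog: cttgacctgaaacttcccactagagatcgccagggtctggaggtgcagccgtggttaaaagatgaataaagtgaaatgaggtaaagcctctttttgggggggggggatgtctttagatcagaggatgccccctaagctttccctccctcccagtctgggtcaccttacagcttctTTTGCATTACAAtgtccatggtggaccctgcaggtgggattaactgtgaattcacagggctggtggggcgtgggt
Pipox: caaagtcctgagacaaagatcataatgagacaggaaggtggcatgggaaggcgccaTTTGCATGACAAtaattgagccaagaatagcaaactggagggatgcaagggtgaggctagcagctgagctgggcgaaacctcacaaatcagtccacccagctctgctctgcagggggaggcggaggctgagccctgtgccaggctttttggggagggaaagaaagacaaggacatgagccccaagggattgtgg

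LIF keeps mouse ES cells undifferentiated through a receptor made of Lifr and gp130, which activates Jak kinases and Stat3. The receptor genes went separate ways. Il6st, the gene for gp130, gave 1649 units in ES cells, 8451 in MEF and 6222 in p53-null MEF, 5.16-fold lower in ES cells. Lifr gave 546 units in ES cells, 356 in MEF and 1196 in p53-null MEF at its brightest probe, 0.61 apart in log2, and its dimmer probes differed by 1.81 to 2.14. Osmr, the receptor for oncostatin M that pairs with the same gp130, was 159-fold lower, with 79.1 units in ES cells and 12499 in MEF. Of 12 measured genes of this group, Cntfr, the ciliary neurotrophic factor receptor, was higher by 2-fold or more in ES cells by the brightest probe, and 7 were lower by 2-fold or more.

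Of 20 genes of the JAK and STAT pathway, 6 were higher by 2-fold or more and 11 lower by 2-fold or more. The lower ones were mostly kinases and transcription factors. Jak1 was 6.44-fold lower, Stat3 3.35-fold lower, with 6359 units in ES cells and 21159.9 in MEF (-0.53 at another probe), and Stat5a 22.0-fold lower. The higher ones included feedback inhibitors and pathway targets. Pim3 and Pim1, kinases that Stat3 is known to induce, were 12.6-fold and 7.91-fold higher (0.11 at another Pim1 probe), and the cytokine signalling suppressors Socs2 and Socs3 were 6.28-fold and 2.12-fold higher. Socs1, of the same family, went the other way at 4.17-fold lower. Stat4, best known from T cells, gave 376 units in ES cells, 4.10 in MEF and 37.6 in p53-null MEF, at least 30.2-fold higher.

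FGF ligands differed in direction by member. Fgf15, Fgf17, Fgf8 and Fgf3, ligands of early embryo signalling, were higher in ES cells: Fgf15 gave 799.9 units in ES cells, 3.28 in MEF and 3.78 in p53-null MEF, and Fgf17 gave 773 units in ES cells, 2.92 in MEF and 4.28 in p53-null MEF. Fgf10 and Fgf7, which mesenchyme secretes to instruct epithelia, were 104-fold and 10.03-fold lower, with Fgf10 at 13.3 units in ES cells, 1371 in MEF and 226 in p53-null MEF. In all, 6 of 14 ligands were higher by 2-fold or more and 8 lower by 2-fold or more. Of the 14 values, 7 were bounds, whose direction was fixed by the 1 array that passed the filter. Fgf5, a marker of the primed epiblast, was among the lower ones at 4.11-fold. Among receptors, Fgfr1 and Fgfr2 were 3.099-fold and 3.88-fold lower and Fgfr3 2.72-fold higher. Of 15 receptors and feedback genes, 8 were higher by 2-fold or more and 5 lower. Among genes that FGF signalling through Erk is known to induce, Spry4, a feedback inhibitor, was 10.01-fold higher, the transcription factor genes Etv4 and Etv5 were 5.62-fold and 5.13-fold higher, and the Erk phosphatase gene Dusp6 was 2.28-fold higher. Spry1, of the Spry4 family, was 2.61-fold lower.

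Of 19 Nodal, Activin and TGF-beta ligands and inhibitors, 6 were higher by 2-fold or more in ES cells and 12 lower. The higher ones were Nodal, Tdgf1, Gdf3, Lefty1, Lefty2 and Ltbp4. Nodal gave 6923 units in ES cells, 37.3 in MEF and 28.3 in p53-null MEF, 184-fold higher. Its co-receptor gene Tdgf1 gave 9978 units in ES cells, 41.8 in MEF and 3.44 in p53-null MEF, 237-fold higher. Its relative Gdf3 was at least 261-fold higher, and the feedback inhibitors Lefty1 and Lefty2 were 10.5-fold and at least 69.4-fold higher. All of these were below the ES cell signal on both fibroblast arrays. Tgfb2 and Tgfb3 were 66.5-fold and 61.6-fold lower in ES cells, and Inhba, the Activin A subunit gene, gave 559.9 units in ES cells, 8563 in MEF and 18738 in p53-null MEF, 15.4-fold lower. Of the latent TGF-beta binding proteins, Ltbp1, Ltbp2 and Ltbp3 were 37.4-fold, 131-fold and 28.6-fold lower, while Ltbp4 was 7.10-fold higher, at 25652 units in ES cells, 3590.2 in MEF and 2333 in p53-null MEF.

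Of 24 receptors, Smads and targets of the family, 3 were higher by 2-fold or more, 10 lower and 11 within 2-fold. Tgfbr2, which binds TGF-beta, gave 315 units in ES cells, 24632 in MEF and 15902 in p53-null MEF, 78.6-fold lower, and the co-receptor gene Tgfbr3 was at least 31.6-fold lower. Acvr2b, a type II receptor for Nodal and Activin, gave 1630.5 units in ES cells, 44.2 in MEF and 81.6 in p53-null MEF, 36.7-fold higher. Smad2 and Smad4, the shared signal carriers, differed by 0.05 and -0.26 on the log2 scale, less than 2-fold, while Smad3 was 7.22-fold lower and the inhibitory Smad6 10.8-fold lower. The Smad corepressor gene Skil was 9.14-fold higher. Gdf3 was counted above with Nodal. Of the other BMP and GDF ligands and inhibitors listed, none was higher by 2-fold or more in ES cells. In that list 16 of 19 were lower by 2-fold or more, with a median log2 difference of -2.80. Bmp4, the ligand known to act with LIF on ES cells, stayed within 2-fold and gave 1802 units in ES cells, 2801 in MEF and 1996 in p53-null MEF. The antagonist gene Grem1 was 12.5-fold lower. Of the BMP targets, Id1 and Id2 stayed within 2-fold, at -0.66 and -0.13 on the log2 scale, while Id3 was 9.92-fold lower and Id4 4.64-fold lower.

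Wnt genes showed a similar separation by member. Wnt8a and Wnt3, ligands of the early embryo, were at least 14.96-fold and at least 7.86-fold higher in ES cells, at 186 and 97.8 units. Wnt2, Wnt16 and Wnt10a were at least 191-fold, at least 94.0-fold and 63.1-fold lower, with Wnt2 at 3.49 units in ES cells, 1917 in MEF and 597 in p53-null MEF. Of the frizzled receptors, Fzd9 and Fzd10 were 13.0-fold and 12.7-fold higher, and Fzd1 gave 156 units in ES cells, 10456 in MEF and 8580.3 in p53-null MEF, 67.4-fold lower. Secreted Wnt antagonists were high in MEF: Dkk2 was at least 451-fold lower, Dkk3 143-fold lower, Frzb at least 70.8-fold lower and Sfrp2 11.04-fold lower. Of 24 receptors and antagonists, 16 were lower by 2-fold or more in ES cells and 4 higher by 2-fold or more.

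Inside the cell, the Wnt-regulated factor gene Sp5 gave 3564 units in ES cells, 3.30 in MEF and 3.79 in p53-null MEF, at least 286-fold higher. The nuclear partners of beta-catenin differed among themselves. Lef1 and Tcf7 were 43.1-fold and 24.5-fold higher, Tcf7l1, the main family member of ES cells, differed by 0.27 on the log2 scale, and Tcf7l2 was 6.24-fold lower. Ctnnb1, the gene for beta-catenin, differed by 0.34 (1.49 at another probe). Axin2, a general target of the pathway, was 2.85-fold higher. The receptor gene Lgr5 was at least 53.5-fold lower, and Wls, which carries Wnt proteins to the cell surface, gave 474 units in ES cells, 17669 in MEF and 20926 in p53-null MEF, 37.5-fold lower.

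In the Notch pathway the ligand genes Dll3, Jag2 and Dll1 were at least 54.7-fold, at least 44.8-fold and 33.4-fold higher in ES cells, with Dll1 at 952 units in ES cells, 28.3 in MEF and 20.9 in p53-null MEF. The receptor genes Notch1 and Notch3 were within 2-fold, at -0.25 and -0.23 on the log2 scale, and Notch2 was 3.27-fold lower (-0.03 at another probe). In the Hedgehog pathway the receptor gene Ptch1 and the factor Gli1, which the pathway itself induces, were 15.8-fold and at least 14.5-fold higher. The signal transducer Smo, the ligand Dhh and the factor Gli3 were 5.39-fold, 5.38-fold and 4.42-fold lower.

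Growth factor receptors were mostly lower in ES cells, 17 of 25 by at least 2-fold. Pdgfrb and Pdgfra, the receptors for platelet-derived growth factor, gave 162 and 66.8 units in ES cells and 16458 and 4675 in MEF, and were 102-fold and 70.4-fold lower. The collagen receptor gene Ddr2 was 51.5-fold lower and Egfr 18.7-fold lower. Kit, the receptor for stem cell factor, gave 994 units in ES cells, 3.32 in MEF and 16.4 in p53-null MEF, at least 79.9-fold higher, and Erbb3 and Epha2 were 4.60-fold and 3.45-fold higher. Of 19 genes of the Hippo pathway and its targets, 11 were lower by 2-fold or more. These included the effectors Yap1 (2.12-fold) and Wwtr1 (3.31-fold), the targets Ccn1 (6.47-fold) and Axl (22.6-fold), and the kinase gene Lats2 (22.1-fold). The LIM protein gene Ajuba was 4.24-fold higher.

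**Figure D2:**
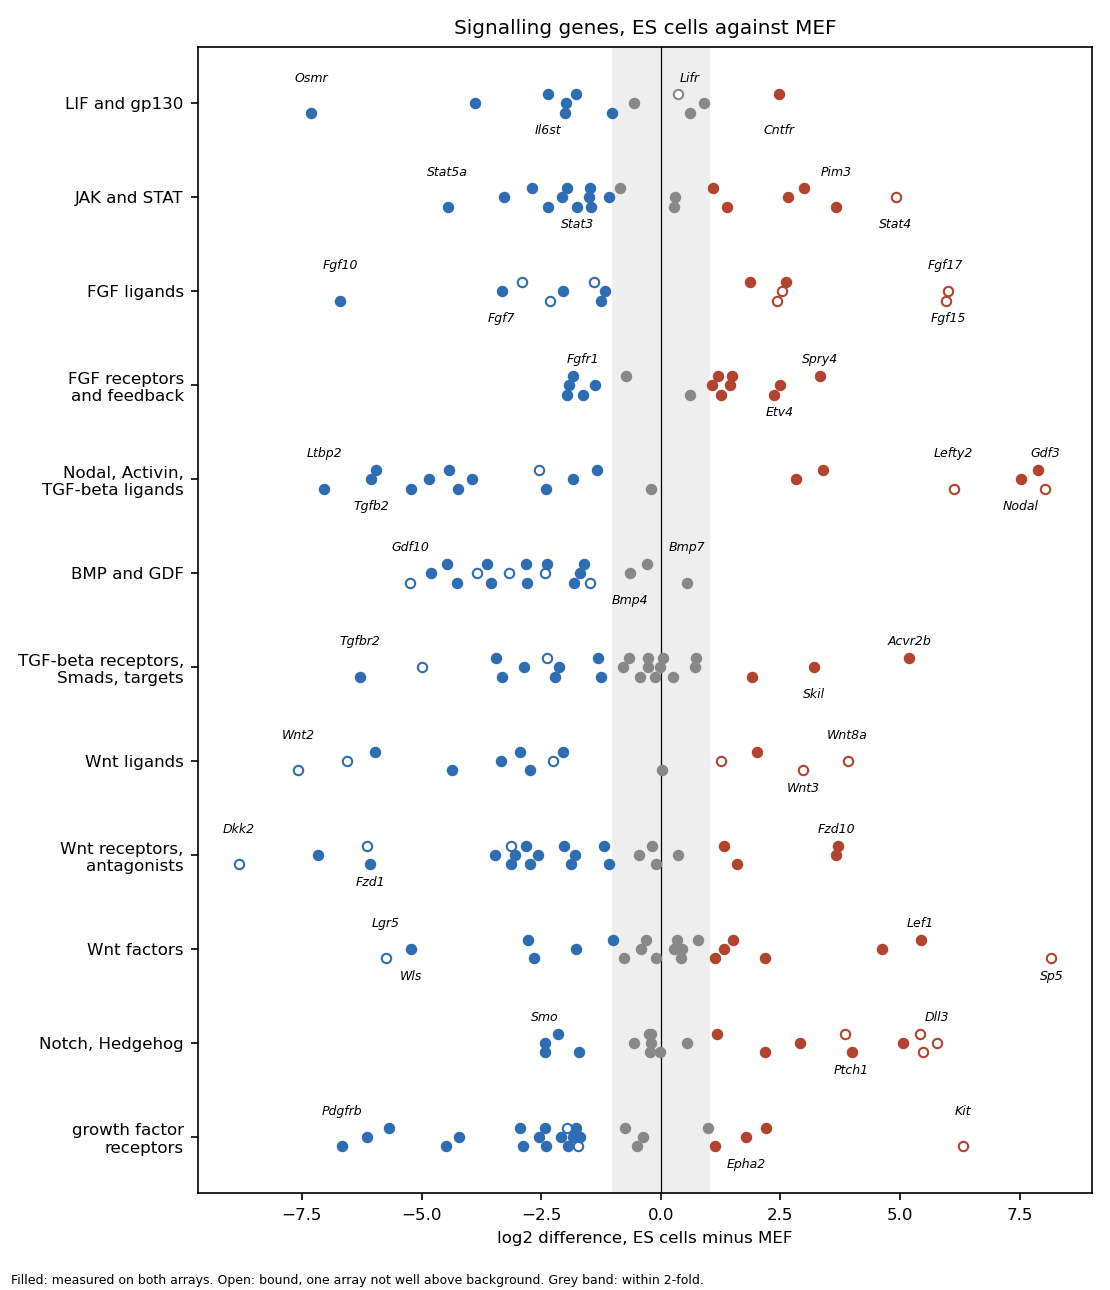
Each point is a gene, placed by its log2 difference between ES cells and MEF, 1 array each, in 12 groups of signalling genes. Open points are bounds and the grey band marks differences under 2-fold. Nodal, Lefty2 and Gdf3 lie far to the right of a row whose other members include Ltbp2 and Tgfb2 on the left. In the BMP and GDF row, which does not hold Gdf3, no gene lies right of the band.

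Cell adhesion differed by family. Cdh1, the gene for E-cadherin, gave 15794 units in ES cells, 3.38 in MEF and 9.17 in p53-null MEF, at least 1269-fold higher. It and Cdh11 were the 2 of 16 cadherin and catenin genes that were higher by 2-fold or more. Cdh2, the gene for N-cadherin, gave 469 units in ES cells, 2717 in MEF and 3458 in p53-null MEF, 5.82-fold lower, and the T-cadherin gene Cdh13 was 56.9-fold lower. Cdh11, a cadherin of mesenchyme, depended on the probe: the brightest differed by 1.18 and another by -6.82 on the log2 scale. The catenin gene Ctnna1, whose product ties cadherins to actin, differed by 0.02 (2.41 at another probe). Of 23 tight junction and desmosome genes, 13 were higher by 2-fold or more in ES cells and 3 lower. Of the 23 values, 9 were bounds, and a gene that passed the filter on the ES cell array alone could not come out lower. The median log2 difference was 1.77 with bounds and 1.10 over genes measured on both arrays. The claudin genes Cldn6 and Cldn7 were at least 30.8-fold and 30.5-fold higher, the occludin gene Ocln at least 18.7-fold higher, the junction scaffold gene Tjp3 at least 44.4-fold higher, and the desmosome gene Dsg2 at least 52.96-fold higher. Cldn7 gave 1856 units in ES cells, 60.5 in MEF and 102 in p53-null MEF.

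Epithelial regulators were also higher in ES cells, 17 of 19 higher by 2-fold or more and none lower by 2-fold or more. Of the 19 values, 12 were bounds, of genes that passed the filter on the ES cell array alone and so could not come out lower, and the median was 4.40 with them and 2.62 over genes measured on both arrays. The protease inhibitor gene Spint1 gave 2587 units in ES cells, 33.8 in MEF and 83.5 in p53-null MEF, 76.0-fold higher, and the lipolysis-stimulated receptor gene Lsr, part of tricellular junctions, gave 18487 units in ES cells, 1097 in MEF and 4803 in p53-null MEF, 16.7-fold higher. Esrp1, which sets epithelial splicing, was at least 28.5-fold higher, and the repressor gene Ovol2 at least 44.6-fold higher. Factors known to drive the epithelial to mesenchymal transition were lower, 10 of 11. Snai2 gave 401 units in ES cells, 23508 in MEF and 24416 in p53-null MEF, 58.9-fold lower, Twist1 was 16.9-fold lower and Zeb1 7.59-fold lower. Snai3 was the exception, at least 4.65-fold higher, at 57.8 units.

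Receptors for matrix and the matrix of the basement membrane differed by subunit. Of 17 integrin genes, 10 were lower by 2-fold or more in ES cells, and Itgb7 was the 1 that was higher, at 3.56-fold. Itga11, a collagen-binding integrin, gave 10.6 units in ES cells, 8445 in MEF and 5264 in p53-null MEF, at least 805-fold lower. Itga6, part of a laminin receptor of ES cells, differed by 0.65 on the log2 scale, within 2-fold. The laminin gene Lama1 gave 383 units in ES cells, 16.6 in MEF and 13.9 in p53-null MEF, 22.9-fold higher (1.23 at another probe), while Lama4 gave 33.7 units in ES cells, 4313 in MEF and 1517 in p53-null MEF, 129-fold lower, and Lama2 was at least 57.7-fold lower. Lama5 and Lamc1, further chains of embryonic laminins, stayed within 2-fold at 0.32 and 0.11.

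Intermediate filament genes split too. Of the nuclear lamins, Lmna, which stiffens the nucleus of differentiated cells, gave 9879 units in ES cells, 118664 in MEF and 111912 in p53-null MEF, 12.1-fold lower, while Lmnb1 and Lmnb2 were 2.99-fold and 6.36-fold higher. Among keratins, Krt17 was 15.1-fold higher, Krt8 and Krt18 2.35-fold and 2.05-fold higher, and Krt19 and Krt7 25.5-fold and 36.9-fold lower. Vimentin, the filament of mesenchymal cells, was bright on both arrays, with Vim at 33352 units in ES cells, 93724 in MEF and 133380 in p53-null MEF, 2.83-fold lower. The gap junction gene Gja1 was 4.12-fold lower and Gjb2 at least 63.9-fold lower, while Gjc1 was 2.92-fold higher.

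Genes of the contractile machinery and focal adhesions were lower in ES cells, 23 of 28 by at least 2-fold and none higher, with a median log2 difference of -2.83. Cnn1, the gene for calponin, gave 1731 units in ES cells, 54222 in MEF and 164479 in p53-null MEF, 31.5-fold lower. The myosin light chain gene Myl9 gave 5173 units in ES cells, 130182 in MEF and 182243 in p53-null MEF, 25.3-fold lower, the LIM domain gene Fhl2 was 39.3-fold lower, and Lmod1, a leiomodin that nucleates actin filaments in smooth muscle, 81.1-fold lower. The cytoplasmic actins Actb and Actg1 stayed within 2-fold, at -0.16 and -0.45. The Actb probe is placed on chromosome X in mm7 and gave 3189 units in ES cells and 3530 in MEF. Whether it reads the Actb transcript was not tested. Acta2, the smooth muscle actin, was 4.13-fold lower at the probe chosen and differed by -6.53 at a probe of nearly the same mean signal, so its size depends on the probe.

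Serum response factor is known to bind a CArG box, which is CC, then 6 bases that are each A or T, then GG. Such a box lay in the 250 bases before the start of 7 of 24 contractile genes with a RefSeq promoter (29.2%), against 1.62% of all 27025 genes and 1.54% of those measured. The 7 were Myl9, Fhl1, Fhl2, Vcl, Cnn2, Myl6 and Actg1, and their differences ran from -5.30 (Fhl2) to -0.45 (Actg1) on the log2 scale. So the box was found both in genes that were strongly lower and in those within 2-fold. The promoters of Myl9, of the adhesion gene Vcl (8.33-fold lower) and of the calponin gene Cnn2 (5.63-fold lower) show it in capitals, at chr2:156775214-156775463 on the plus strand, chr14:20929148-20929397 on the plus strand and chr10:79988350-79988599 on the plus strand.

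Myl9: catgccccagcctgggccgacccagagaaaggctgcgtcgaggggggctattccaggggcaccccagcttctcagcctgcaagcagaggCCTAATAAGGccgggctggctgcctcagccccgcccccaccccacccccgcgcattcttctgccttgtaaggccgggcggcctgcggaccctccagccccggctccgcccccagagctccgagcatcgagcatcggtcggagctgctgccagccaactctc
Vcl: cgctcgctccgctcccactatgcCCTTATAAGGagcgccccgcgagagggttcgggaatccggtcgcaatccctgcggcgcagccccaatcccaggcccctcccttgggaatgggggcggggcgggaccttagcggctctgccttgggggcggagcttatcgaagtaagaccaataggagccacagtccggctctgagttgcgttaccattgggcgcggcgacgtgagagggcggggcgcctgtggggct
Cnn2: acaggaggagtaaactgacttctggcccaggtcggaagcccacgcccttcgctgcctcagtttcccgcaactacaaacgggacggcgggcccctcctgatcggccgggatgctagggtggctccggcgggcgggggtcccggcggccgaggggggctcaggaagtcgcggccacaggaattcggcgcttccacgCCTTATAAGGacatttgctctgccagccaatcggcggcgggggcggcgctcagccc

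Genes of caveolae, the flask-shaped pits of the fibroblast membrane, and surface markers were lower in ES cells. Cav1 gave 3006 units in ES cells, 84247 in MEF and 75382 in p53-null MEF, 28.2-fold lower, and Cavin1, its coat partner, was 23.3-fold lower. The stem cell antigen genes Ly6a and Ly6c1 were 573-fold and 541-fold lower, the latter at 203 units in ES cells, 109249 in MEF and 38133 in p53-null MEF. Of 22 genes in this list, 19 were lower by 2-fold or more and Ngfr, the nerve growth factor receptor, was 2.15-fold higher, although it gave 19.3 units in p53-null MEF.

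What fibroblasts secrete was mostly lower in ES cells. Among matrix processing genes, which cross-link and fold collagen, 17 of 19 were lower by 2-fold or more. The lysyl oxidase gene Lox gave 104 units in ES cells, 18141 in MEF and 9066 in p53-null MEF, 176-fold lower, and the procollagen protease gene Adamts2 was 237-fold lower. Elastic fibre genes followed: Fbn1, the gene for fibrillin 1, was 205-fold lower, and Fbln5 112-fold lower. Of 27 proteases and inhibitors, 21 were lower by 2-fold or more, with the collagenase gene Mmp13 at least 102-fold lower, the plasminogen activator gene Plat 74.7-fold lower and the inhibitor gene Timp2 28.2-fold lower, at 7011 units in ES cells, 196748 in MEF and 68923 in p53-null MEF. Collagens that went the other way were Col18a1, which gave 45126 units in ES cells, 15333 in MEF and 2102 in p53-null MEF, 2.92-fold higher, and the cartilage collagen gene Col9a2, 4.01-fold higher. The basement membrane gene Nid2 was 2.06-fold higher.

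Secreted cytokines and growth factor binding proteins were lower for 23 of 26. Igfbp5 gave 10.4 units in ES cells, 12485 in MEF and 12632 in p53-null MEF, at least 1209.5-fold lower, the chemokine genes Ccl7 and Cxcl5 were 295-fold and at least 312-fold lower, and Cxcl12, which guides migrating cells, was 84.4-fold lower. Csf1, the macrophage growth factor, was 27.5-fold lower. Igfbp2 alone was higher by 2-fold or more, at 15793 units in ES cells, 4654 in MEF and 6881 in p53-null MEF.

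By their medians, replication and mitosis genes were highest in ES cells and lowest in MEF. Of 37 replication genes, 36 were higher by 2-fold or more than in MEF, with a median log2 difference of 3.003. The helicase gene Mcm5 gave 30636 units in ES cells, 1480 in MEF and 9941 in p53-null MEF, 20.6-fold higher, the loader gene Cdc6 was 19.8-fold higher, and Orc1, which marks replication origins, 36.3-fold higher. Prim2, a primase subunit, was the 1 that was lower, at -2.13 on the log2 scale, with another probe at 0.32. All 30 mitosis genes were higher by 2-fold or more, among them the spindle checkpoint kinase gene Ttk at 1059 units in ES cells, 25.2 in MEF and 378 in p53-null MEF. Against p53-null MEF, which share the ES cell array in this comparison, 18 replication and 13 mitosis genes were higher by 2-fold or more, with medians of 0.97 and 0.80. Of 17891 genes compared with p53-null MEF, 27.6% were higher by 2-fold or more and 22.7% lower. So by the medians of the replication and mitosis genes, the p53-null MEF array lay between the others. DNA repair genes kept a larger distance: 31 of 32 were higher by 2-fold or more than in MEF and 25 than in p53-null MEF, with medians of 3.06 and 1.53. The homologous recombination gene Brca2 gave 5741 units in ES cells, 186 in MEF and 1635 in p53-null MEF, the helicase gene Blm 8106 units in ES cells, 247 in MEF and 2512 in p53-null MEF, and the mismatch repair gene Msh6 75227 units in ES cells, 6084 in MEF and 13756 in p53-null MEF.

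The factor NF-Y is known to bind the letters CCAAT, common in promoters of mitotic genes. CCAAT on either strand lay in the 250 bases before the start of 19 of 26 mitosis genes (73.1%) and in 60% of 30 replication genes, against 37.5% of all genes and 40.2% of those measured. Lists lower in ES cells held it in like shares, with 63.6% of 22 Hox genes, 53.3% of 30 limb and mesenchyme factors and 50% of 24 contractile genes. Ccnb1, the gene for cyclin B1 (17.0-fold higher), and Ttk (41.8-fold higher) each hold it at 2 places, shown in capitals, at chr13:100786487-100786736 on the minus strand and chr9:83834439-83834688 on the plus strand.

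Ccnb1: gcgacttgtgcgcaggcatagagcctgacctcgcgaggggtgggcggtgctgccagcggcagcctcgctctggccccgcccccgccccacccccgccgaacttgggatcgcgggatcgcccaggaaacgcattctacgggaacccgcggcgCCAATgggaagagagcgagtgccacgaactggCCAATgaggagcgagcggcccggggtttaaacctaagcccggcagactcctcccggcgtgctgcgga
Ttk: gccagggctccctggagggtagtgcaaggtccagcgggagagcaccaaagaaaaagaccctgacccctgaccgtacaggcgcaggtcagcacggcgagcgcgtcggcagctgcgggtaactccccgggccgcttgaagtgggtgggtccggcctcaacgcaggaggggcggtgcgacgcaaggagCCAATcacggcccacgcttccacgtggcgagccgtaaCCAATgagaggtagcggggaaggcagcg

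Of 24 cyclins, CDKs and their regulators, 15 were higher by 2-fold or more in ES cells and 4 lower than in MEF, and 9 and 6 than in p53-null MEF. Ccne1, the gene for cyclin E1 of the entry into S phase, gave 70567 units in ES cells, 8507 in MEF and 20165 in p53-null MEF, and Ccnb1 13479.7 units in ES cells, 787 in MEF and 5931 in p53-null MEF. Of the D-type cyclins, which link growth signals to the cycle, Ccnd2 gave 7952 units in ES cells, 120387 in MEF and 58811 in p53-null MEF, 15.2-fold lower, Ccnd1 was 8.45-fold lower and Ccnd3 stayed within 2-fold, at -0.96 on the log2 scale. Cdk2 was 3.11-fold higher, Cdk4 differed by 0.59, and Cdk6 was 2.04-fold lower at its brightest probe while a dimmer probe gave a log2 difference of 2.56, so its direction is not settled. The Myb family gene Mybl2, an activator of mitotic genes, gave 14508 units in ES cells, 168 in MEF and 1635 in p53-null MEF, 85.7-fold higher. Of 8 CDK inhibitor genes, 4 were lower by 2-fold or more and none higher. Cdkn2b, the gene for p15, gave 1083 units in ES cells, 35384 in MEF and 24412 in p53-null MEF, 32.9-fold lower, and Cdkn2a, the locus of p16 and p19Arf, gave 162 units in ES cells, 1784 in MEF and 3102 in p53-null MEF, 11.04-fold lower. Cdkn1a, the gene for p21 and a target of p53, gave 523 units in ES cells, 13473 in MEF and 335 in p53-null MEF, so it was low in ES cells and in p53-null MEF. Cdkn1b, the gene for p27, differed by -0.48.

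**Figure D3:**
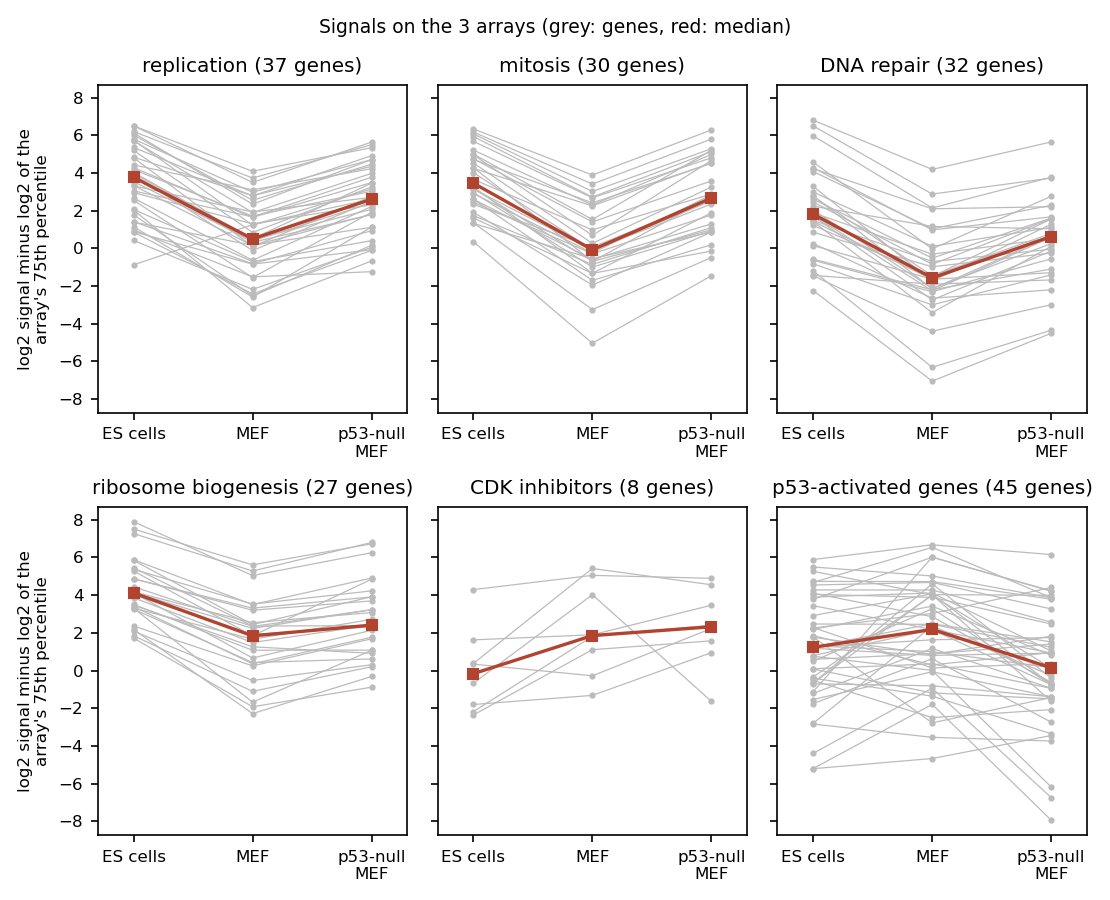
Lines join the log2 signal of each gene, relative to the 75th percentile of its array, on the ES cell, MEF and p53-null MEF arrays, in 6 gene groups. The red line is the median. By their median difference from ES cells, replication, mitosis, repair and ribosome biogenesis genes are lowest in MEF, with p53-null MEF between. Single genes can depart from this order, such as Prim2, which was lower in ES cells than in MEF. The p53-null MEF array was not on the slide of the others.

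The p53 gene itself, Trp53, gave 4900.1 units in ES cells, 1304 in MEF and 56.2 in p53-null MEF, 3.73-fold higher in ES cells at its brighter probe, while its dimmer probe gave a log2 difference of -0.92. Genes that p53 is known to activate divided: 8 of 45 were higher by 2-fold or more in ES cells than in MEF and 17 lower by 2-fold or more, with a median of -0.26. Trp53inp1, an autophagy and apoptosis regulator, gave 14306 units in ES cells, 5997 in MEF and 673 in p53-null MEF, 2.37-fold higher, and Sfn, a 14-3-3 protein, was 2.35-fold higher. Ephx1, an epoxide hydrolase, gave 529 units in ES cells, 20068 in MEF and 787 in p53-null MEF, 38.2-fold lower, and the death receptor gene Fas was 35.9-fold lower. Mdm2 and Bax differed by 0.02 and 0.01 on the log2 scale, although both were dimmer in p53-null MEF, Mdm2 at 4615 units in ES cells, 4534 in MEF and 2444 in p53-null MEF and Bax at 22152 units in ES cells, 21847 in MEF and 14316 in p53-null MEF. Of the p53 regulators, the deacetylase gene Sirt1 was 17.1-fold higher, and Mdm4, which inhibits p53, 6.51-fold higher. Of the telomere genes, Terf1, which binds the repeats, was 25.7-fold higher and the telomerase RNA partner Dkc1 22.1-fold higher, while the telomerase gene Tert gave 164 units in ES cells, 64.4 in MEF and 53.8 in p53-null MEF, 2.54-fold higher.

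DNA methylation genes were higher in ES cells for 11 of 18 and lower for 3. The maintenance factor Uhrf1 was 8.40-fold higher, Dnmt1 4.80-fold higher and the remodeller Hells 85.5-fold higher. Tet1 and Tet2, which oxidise methylcytosine, gave 3288 and 717 units in ES cells and 63.1 and 58.2 in MEF. Tet3 went the other way within 2-fold, at -0.88 on the log2 scale. Mbd2, a reader of methylated DNA, was 3.48-fold lower.

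Polycomb genes differed by subunit. Of 28 measured, 13 were higher by 2-fold or more in ES cells, 8 lower and 7 within 2-fold. The core repressive complex 2 genes Ezh2, Eed and Suz12 were 11.9-fold, 10.4-fold and 10.4-fold higher, and their partners Jarid2 and Mtf2 67.3-fold and 43.5-fold higher. Of the chromobox proteins of complex 1, Cbx7 gave 8511 units in ES cells, 68.7 in MEF and 103 in p53-null MEF, 123-fold higher, whereas Cbx8 and Cbx6 were 8.58-fold and 3.31-fold lower. Likewise Phc1 was 19.15-fold higher and Phc2 4.26-fold lower, and Bmi1 2.96-fold lower. Of 34 BAF and NuRD remodeller genes, 15 were higher by 2-fold or more in ES cells, 4 lower and 15 within 2-fold. Some alternative subunits of the BAF complex went opposite ways. Smarcc1 and Smarcd1 were 3.21-fold and 7.27-fold higher, and their alternatives Smarcc2 and Smarcd3 6.48-fold and 4.31-fold lower. The ATPase gene Smarca4 differed by 0.67, within 2-fold, and the other ATPase gene, Smarca2, gave 69.1 units in ES cells, 1300.1 in MEF and 623 in p53-null MEF, 18.9-fold lower. Of the CHD remodellers, Chd7 was 74.9-fold higher and Chd3 12.1-fold lower.

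Of 28 histone variant, linker and chaperone genes, 17 were higher by 2-fold or more and 4 lower. Nasp, a chaperone of histone H3, gave 92976 units in ES cells, 3552 in MEF and 41509 in p53-null MEF, 26.0-fold higher, and Hmgb2 was 16.9-fold higher. Linker histones divided, with H1f5 15.7-fold higher and H1f2 10.02-fold lower. The chromatin architecture gene Hmga2 gave 979 units in ES cells, 18268 in MEF and 27909 in p53-null MEF, 18.8-fold lower. Among enzymes of histone methylation, 21 of 33 were higher by 2-fold or more and Setd7 was the 1 lower, at 4.52-fold (a dimmer probe gave a log2 difference of 0.72). Suv39h2, which methylates histone H3 at heterochromatin, was 22.7-fold higher, and the demethylase gene Kdm3a 6.66-fold higher.

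**Figure D4:**
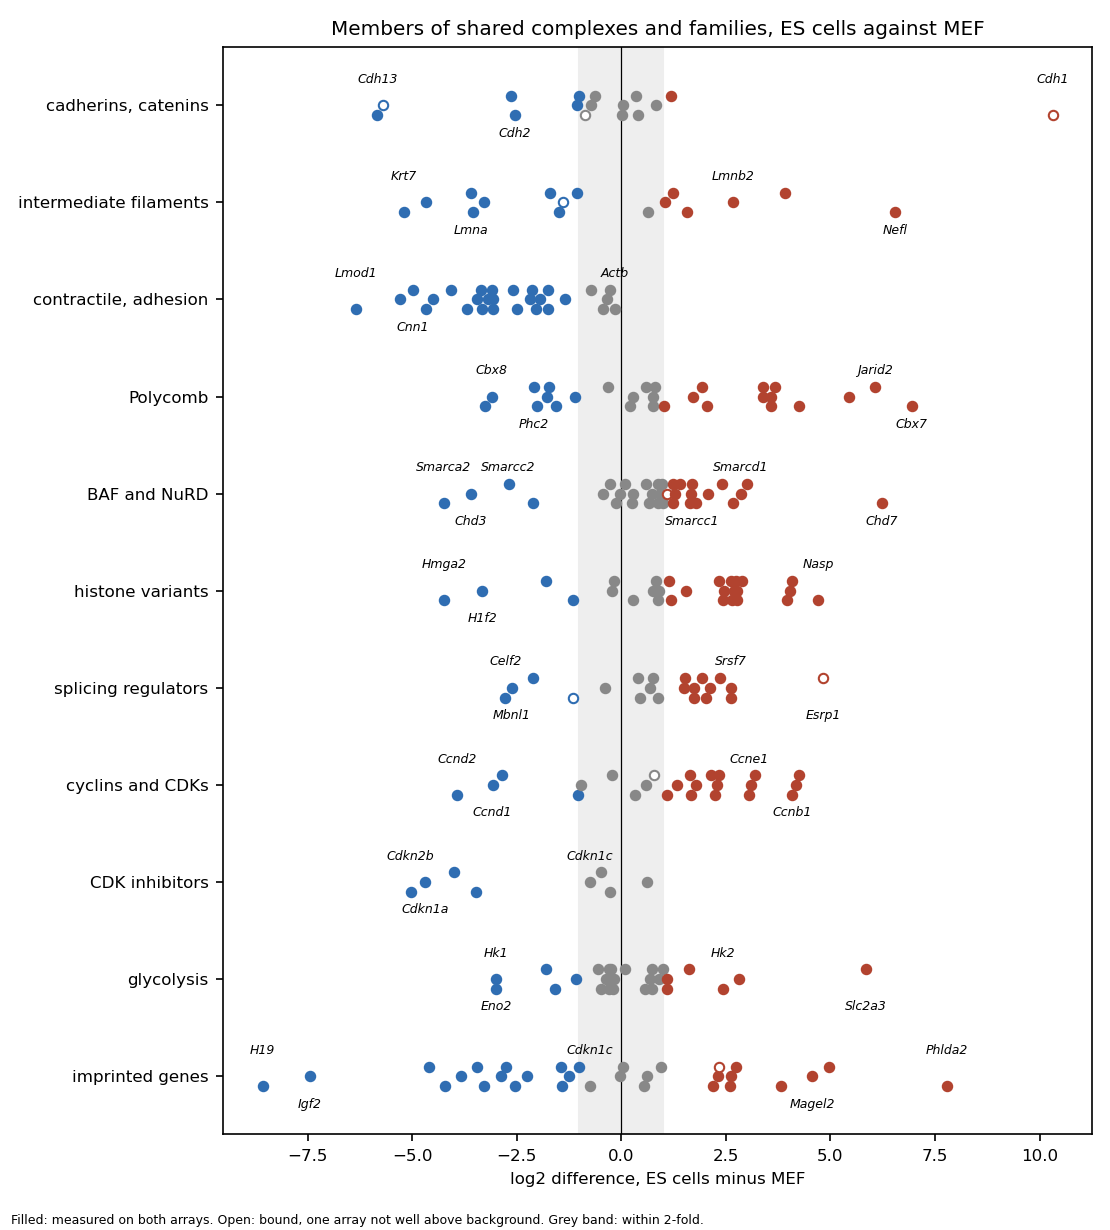
Each point is a gene, placed by its log2 difference between ES cells and MEF, 1 array each, in 11 gene families. Open points are bounds and the grey band marks differences under 2-fold. Members of 1 family lie on both sides, such as Cdh1 and Cdh2, Lmnb2 and Lmna, Cbx7 and Cbx8, Smarcc1 and Smarcc2, and Hk2 and Hk1.

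Genes of the germ line and of the piRNA pathway, which silences transposons, were higher in ES cells, 30 of 31 by at least 2-fold, and 21 of the values were bounds because the fibroblast signal was not well above background, so that those genes could not come out lower. Rhox5, a homeobox gene of the X chromosome, gave 14357 units in ES cells, 134 in MEF and 1036 in p53-null MEF, 107-fold higher. The meiotic cohesin genes Stag3 and Smc1b were 51.7-fold and at least 37.9-fold higher, and the axis protein genes Sycp3 and Hormad1 at least 27.0-fold and at least 30.8-fold higher. Ddx4, the gene for the germ cell helicase Vasa, gave 2320.2 units in ES cells, 758 in MEF and 451 in p53-null MEF, 3.04-fold higher.

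The E-box CACGTG, which reads the same on both strands and is known to be bound by the Max and Mga repressor complex of germ line genes, lay in the 250 bases before the start of 13 of 31 germ line genes with a RefSeq promoter (41.9%), against 6.86% of all genes and 9.56% of those measured. Of those 13, Piwil1, a PIWI protein gene, did not rise well above background in either sample and Tdrd9 had a bound of 0 on the log2 scale. The other 11 were higher in ES cells, from 1.61 (Ddx4) to 7.11 (Mael, a bound). Of these, Ddx4 and Stag3 (5.69) were measured on both arrays. The rest were bounds of genes that passed the filter on the ES cell array alone and could not come out lower. In the whole list, with or without the E-box, 30 of 31 measured genes were higher by 2-fold or more. The promoters of Mael, a piRNA pathway gene (at least 138-fold higher), of the testis TFIID subunit gene Taf7l (at least 15.5-fold higher) and of the ADP/ATP carrier gene Slc25a31 (at least 15.2-fold higher) show it in capitals, at chr1:166238745-166238994 on the minus strand, chrX:134476491-134476740 on the minus strand and chr3:40708621-40708870 on the plus strand.

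Mael: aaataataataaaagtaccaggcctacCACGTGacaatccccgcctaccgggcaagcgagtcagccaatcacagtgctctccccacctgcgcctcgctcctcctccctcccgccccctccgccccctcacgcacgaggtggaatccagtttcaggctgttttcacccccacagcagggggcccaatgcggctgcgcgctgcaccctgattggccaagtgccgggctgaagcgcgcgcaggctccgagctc
Taf7l: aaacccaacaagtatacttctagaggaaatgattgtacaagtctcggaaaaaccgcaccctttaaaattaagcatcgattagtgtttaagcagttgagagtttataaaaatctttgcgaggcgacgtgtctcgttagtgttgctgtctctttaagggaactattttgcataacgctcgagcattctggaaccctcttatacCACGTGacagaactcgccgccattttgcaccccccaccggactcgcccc
Slc25a31: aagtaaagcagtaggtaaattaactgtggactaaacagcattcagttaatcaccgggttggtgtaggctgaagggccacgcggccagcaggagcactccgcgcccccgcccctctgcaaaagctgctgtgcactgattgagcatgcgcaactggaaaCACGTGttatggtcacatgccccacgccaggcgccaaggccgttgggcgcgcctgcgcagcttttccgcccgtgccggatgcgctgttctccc

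RNA regulators differed in specific members. Lin28b, which blocks maturation of let-7 microRNAs, gave 2862 units in ES cells, 6.90 in MEF and 50.1 in p53-null MEF, at least 230-fold higher (a dimmer probe gave a log2 difference of 2.43), and Igf2bp1, an mRNA-binding protein, was 10.6-fold higher. Of the splicing regulators, the SR protein genes Srsf7 and Srsf1 were 6.15-fold and 5.15-fold higher. Mbnl1 and Mbnl2, known to favour splice forms of differentiated cells, were 6.13-fold and 4.30-fold lower at their brighter probes. Celf2 was 6.83-fold lower at its brightest probe. Other probes of these genes differed by 1.003 (Mbnl1), -0.09 (Mbnl2) and 0.00 (Celf2) on the log2 scale.

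At the brightest probe, all 27 ribosome biogenesis genes were higher by 2-fold or more in ES cells than in MEF, and 19 than in p53-null MEF, with medians of 2.38 and 1.63. Dimmer probes of some stayed under 2-fold, at 0.00 (Utp20), 0.29 (Rrp1b) and 0.56 (Pes1) on the log2 scale. Polr1b, a subunit of the polymerase that makes ribosomal RNA, gave 8258 units in ES cells, 259 in MEF and 2188 in p53-null MEF, 31.7-fold higher. Ncl, the gene for nucleolin, gave 199249 units in ES cells, 27275 in MEF and 79335 in p53-null MEF, 7.26-fold higher, and the stem cell nucleolar gene Gnl3 was 10.95-fold higher. The proteins of the finished ribosome stood in contrast: of 36 genes, Rps15 was the 1 past 2-fold at the brightest probe, at 2.08-fold. The median of these genes was 0.30, close to the 0.20 of all genes. Other probes of some went past 2-fold, such as 4.18 (Rps24), 3.23 (Rpl13), 3.19 (Rps18) and -3.53 (Rps6) on the log2 scale.

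In metabolism, the threonine and one-carbon genes were higher for 17 of 28. Gldc, which cleaves glycine to feed one-carbon units, gave 6743 units in ES cells, 70.4 in MEF and 154 in p53-null MEF, 95.2-fold higher, Shmt1 was 28.4-fold higher and Mthfd1 6.69-fold higher. Sardh, an enzyme of sarcosine breakdown, gave 35.4 units in ES cells, 1423 in MEF and 533 in p53-null MEF, 40.4-fold lower, the opposite direction to Pipox, which acts on the same substrate. Aldh1l1 and Aldh1l2, which remove one-carbon units, were 5.75-fold and 24.4-fold lower. Glycolysis genes had a median of -0.18, which was 0.05 with spike-in scaling, but members differed. The glucose transporter gene Slc2a3 gave 44392 units in ES cells, 771 in MEF and 1376 in p53-null MEF, 57.2-fold higher. Of the hexokinases, Hk2 was 5.38-fold higher and Hk1 8.01-fold lower, and the pyruvate dehydrogenase kinase gene Pdk1 was 7.05-fold higher. Respiratory chain genes had a median of 0.36, with 28 of 33 within 2-fold, and Cox6a2, a subunit isoform of muscle, was 15.4-fold lower. In lipid metabolism the adipocyte genes Fabp4 and Pparg were 212-fold and 30.2-fold lower and Apoe, the lipid carrier gene, 7.23-fold higher. Of the hypoxia genes, Epas1 was 27.8-fold higher, Hif1a differed by -0.05, and the vasodilator gene Adm gave 121 units in ES cells, 12173 in MEF and 7621 in p53-null MEF, 101-fold lower.

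Genes of antigen presentation and of the interferon response were lower in ES cells. B2m, the light chain of MHC class I, gave 1758 units in ES cells, 31557 in MEF and 20807 in p53-null MEF, 18.1-fold lower, the peptide transporter gene Tap1 was 10.96-fold lower and the MHC gene H2-D1 5.05-fold lower. MHC class I genes are near copies of each other, so their probes may share signal. Of 21 such genes, 15 were lower by 2-fold or more than in MEF and 5 than in p53-null MEF, with 5 higher by 2-fold or more than there. Of 35 interferon response genes, 24 were lower by 2-fold or more. Ifit3 gave 20.9 units in ES cells, 2837 in MEF and 1012 in p53-null MEF, 136-fold lower, and Isg15, a ubiquitin-like modifier, was 67.7-fold lower. The RNA sensor gene Ifih1 was at least 28.9-fold lower and the factor Irf7 at least 13.2-fold lower. Ifitm1, a gene of the early germ line, was 15.4-fold higher.

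Positional identity was high in MEF. Of 35 Hox genes, 29 were lower by 2-fold or more in ES cells, with a median of -4.03. Of the 35 values, 13 were bounds, and a gene that passed the filter on the MEF array alone could not come out higher. Over genes measured on both arrays the median was -4.14. Hoxc6 gave 33.2 units in ES cells, 2956 in MEF and 835 in p53-null MEF, 89.6-fold lower, Hoxb6 was 66.3-fold lower and Hoxa11, of the distal limb, 55.1-fold lower. Hoxb13 was an exception, 2.88-fold higher at 41.9 units. The hindlimb factor Pitx1 gave 17.8 units in ES cells, 5170.2 in MEF and 3835 in p53-null MEF, 292-fold lower, the mesoderm factor Meox2 was 132-fold lower and the osteoblast factor Runx2 14.3-fold lower. Of the AP-1 factors, Fosl2 was 52.1-fold lower and Jun 13.2-fold lower, while Junb differed by -0.26 and Batf3 was 8.42-fold higher.

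Imprinted genes, which are read from 1 parental allele, lay far apart from each other. H19 gave 321 units in ES cells, 121771 in MEF and 31806 in p53-null MEF, 382-fold lower, and Igf2, its neighbour, gave 671 units in ES cells, 115753 in MEF and 122607 in p53-null MEF, 174-fold lower. Plagl1 was 24.2-fold lower and Dio3 18.5-fold lower. Phlda2, a growth-restricting gene of the placenta, gave 12698 units in ES cells, 57.5 in MEF and 649 in p53-null MEF, 219.7-fold higher, and Magel2 and Snrpn were 23.7-fold and 6.16-fold higher. Cdkn1c stayed within 2-fold, at 16387 units in ES cells, 27463 in MEF and 30904 in p53-null MEF. The median of the list, -0.75, became 0.05 with the median probe of each gene. Genes of the Y chromosome were read on both arrays, with Ddx3y at 1479 units in ES cells, 526 in MEF and 3.59 in p53-null MEF and Eif2s3y at 4104 units in ES cells, 1236 in MEF and 4.07 in p53-null MEF. Kdm5d, of the same chromosome, gave 2.61 units in ES cells, 245 in MEF and 3.87 in p53-null MEF, so the Y genes were not alike in direction. Tsix, the antisense partner of Xist, gave 497 units in ES cells, 3.12 in MEF and 55.3 in p53-null MEF, at least 39.9-fold higher.

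Markers of neighbouring states of the early embryo were present in ES cells to different degrees. Zscan4c, a gene of the 2-cell-like state, gave 4852 units in ES cells, 6.01 in MEF and 3.96 in p53-null MEF, at least 389.9-fold higher. The neural and epiblast factor Pou3f1 gave 28671 units in ES cells, 74.0 in MEF and 409 in p53-null MEF, 385-fold higher, and Tcf15, a factor of cells about to leave the naive state, 44979 units in ES cells, 2.60 in MEF and 13.5 in p53-null MEF. The gastrulation factors Eomes and Foxa2 gave 112 and 293 units in ES cells, and 8.52 and 64.0 in MEF. Tfap2c, shared by trophectoderm and germ line, was at least 178-fold higher, while Cdx2, the trophectoderm factor, gave 71.2 units in ES cells. The endoderm factors Gata6 and Dab2 were 14.3-fold and 26.9-fold lower in ES cells, and Sox17 was at least 4.57-fold higher at 56.8 units. The primitive endoderm list shares Pdgfra, Sparc and the type IV collagens with fibroblasts, and 8 of its 14 genes were lower. The germ layer list, 8 of 15 higher, held many bounds, and its median of 1.06 became -0.74 for genes well above background on both arrays.

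Some of the largest differences lay outside these lists. The X-linked genes Bex1 and Bex4 gave 30468 and 81214 units in ES cells and 59.0 and 224 in MEF, and were 513-fold and 361-fold higher. They were brighter in p53-null MEF, at 1137 and 3156. Trap1a, a tumour rejection antigen gene, was at least 1152-fold higher, and Car2, a carbonic anhydrase gene, 317-fold higher. Chchd10, a mitochondrial protein gene, gave 159573 units in ES cells, 3138 in MEF and 7612 in p53-null MEF, 50.5-fold higher. In the other direction, Mgp, which inhibits calcification of matrix, gave 69.3 units in ES cells, 69801 in MEF and 87779 in p53-null MEF, 1014-fold lower. Penk, the gene for proenkephalin, gave 381 units in ES cells, 142306 in MEF and 93314 in p53-null MEF, 376-fold lower, and Thbd, the gene for thrombomodulin, 9.25 units in ES cells, 22359 in MEF and 2535 in p53-null MEF, at least 2228-fold lower. Prg4, which lubricates joints, gave 2.27 units in ES cells, 17016 in MEF and 49.2 in p53-null MEF, so it was high in MEF alone.

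Promoters of the genes that differed most were less often CpG-rich. The CpG ratio compares observed with expected CpG letters, and a ratio of at least 0.6 was called CpG-rich. By that measure 59.9% of 12117 measured genes with a RefSeq promoter were CpG-rich, 57.1% of those higher by 5-fold or more in ES cells and 44.9% of those lower by 5-fold or more. Among genes at least 100-fold different, 32.6% of 86 higher and 22.0% of 82 lower ones were CpG-rich. The letters TATAAA, on either strand, lay in 20.7% of the promoters lower by 100-fold or more, 16.3% of those higher by 100-fold or more and 9.52% of all measured. By chromosome, on the mm7 positions of the probes, the share of genes higher by 5-fold or more ran from 10.4% (chromosome 3) to 14.9% (chromosome 17) among chromosomes other than Y, against 13.0% overall.

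**Figure D5:**
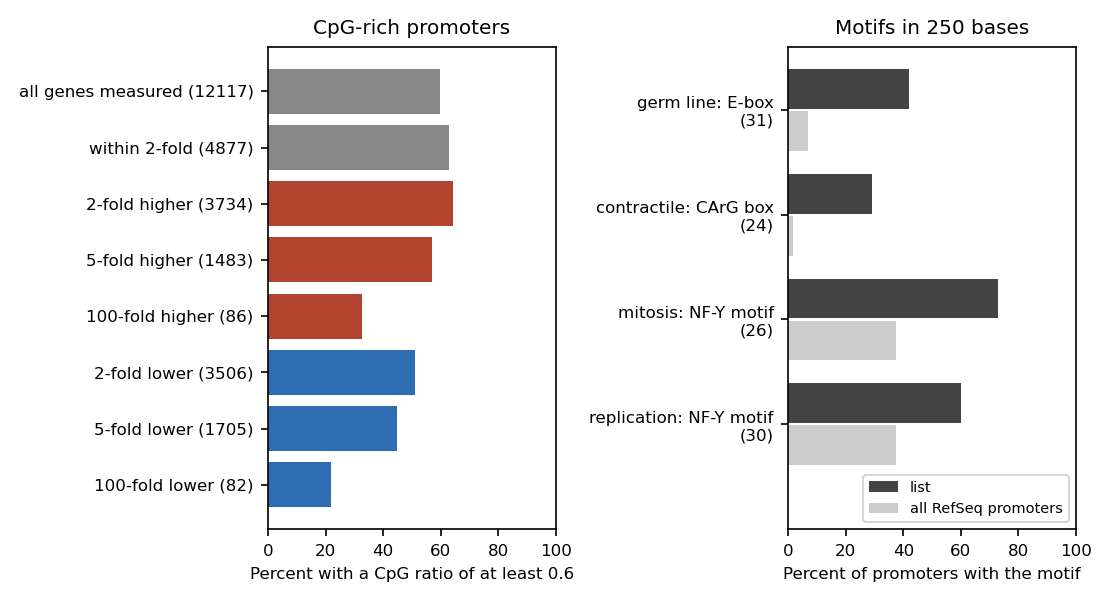
The left panel gives the percent of genes with a CpG ratio of at least 0.6 in the 250 bases before the start, by size of the difference between ES cells and MEF (red higher, blue lower in ES cells, number of genes in brackets). The right panel gives the percent of promoters with a motif in 4 gene lists (dark) and among all 27025 RefSeq genes (light), with 41.9% against 6.86% for the E-box in germ line genes.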

How the data were processed

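RNA of 3 cell samples was read on 1 array each, with 1 dye. The values deposited by the authors are spot intensities on a linear scale, from which the scanner software (Agilent Feature Extraction, version 9.5.3.1 in the file headers) had subtracted background. The value table of the series held the same intensities (ratios 0.995 to 1.005 to the scanner signals, with no log, centring or sign; column medians 50.0, 43.2 and 51.8) and served as an alternative. Control spots and spots flagged as uneven or outliers (176, 192 and 62 in ES cells, MEF and p53-null MEF) were left out. Each array's 75th percentile was subtracted from its log2 signals, spots of 1 probe were averaged, and the probe with the highest mean signal stood for a gene.

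Probes were named through RefSeq (GRCm38.p6) by accession (24761), symbol (6254) or synonym (2435), and the other 7724 of 41174 kept the name in the scanner file. The ES cell and MEF files cite mouse build mm7 and the p53-null MEF file mm8, so probe positions are those of mm7. Promoter sequences are from RefSeq, build GRCm38.p6, and each motif was searched on both strands.

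With 1 array per side no test was run, and the number of arrays limits the precision. The scanner error model adds 10% of a bright signal. The members of the gene lists and the lists were chosen with earlier results of these data known. The genes named are list members with the largest differences in either direction or a defining role, and outside the lists those with the largest differences or brightest signals. Scaling, background correction, the filter on dim probes, the choice of probe and the fold threshold were varied. In data simulated from the MEF signals, a small part of 25064 probes, none near background, was changed 8-fold with small random noise. Of these, 100% were found at least 5-fold different, and 0% of unchanged ones. An 8-fold change lies past 5-fold by design and no dim probe was changed, so this checks the calculation only. Python 3.11.15, numpy 2.4.6, pandas 2.3.3, matplotlib 3.10.9, R 4.3.3 and limma 3.58.1 were used.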

Additional observations from a re-analysis of the deposited data

How the results depend on the processing

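With normexp background correction (offset 50), the genes past 5-fold numbered 1447 higher and 1544 lower in ES cells, against 2434 and 2424. Under the other alternatives the counts at 5-fold and 2-fold stayed within 1.5 times, and the share of higher genes at 5-fold ran from 42.2% (cyclic loess) to 58.5% (spike-in scaling) around 50.1%. Sizes of single differences were less stable. Of 342 named genes, 247 were counted as moved with median scaling and 260 with spike-in scaling. With normexp it was 191, with cyclic loess 137 and with quantile normalization 0. Of 74 list medians, 73 moved with median scaling, 74 with spike-in scaling, 43 with normexp and 62 with cyclic loess. At a threshold of 2-fold, 64.1% of higher and 51.2% of lower genes had a CpG-rich promoter, against 57.1% and 44.9%. By chromosome, the share higher by 2-fold or more ran from 29.4% (chromosome 15) to 36.9% (chromosome 8), leaving out Y. Among genes well above background on both arrays, the medians of the germ layer list (-0.74) and of the endothelial markers (-0.23) reversed. The medians of the trophectoderm (0.56 to -0.65) and of the Notch and Hedgehog lists (0.27 to -0.20), under 2-fold to begin with, also changed sign. Of 342 named genes, Cdh11 reversed with the mean of all probes (-4.15) and the median probe (-6.80), and Cdk6 with the mean of all probes (0.43). No other named gene reversed under the 10 settings tried for single genes, and 61 of them, measured as bounds, have no value under the filter that asks for signal on both arrays. The cause of these changes was not tested, except that these lists then held fewer genes. No paired analysis was possible because each group has 1 sample. Without replicates, no difference can be set against the spread between cultures. Signals near the lowest well above background (10.1 units in ES cells, 12.4 in MEF) give bounds only, and 744 of the 5-fold higher and 546 of the 5-fold lower genes rest on one.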

Other observations

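Of 27348 gene labels, 14816 were well above background on both arrays, 2362 in ES cells alone, 1452 in MEF alone and 8718 on neither. Of the genes at least 5-fold different, 1884 of 2434 higher and 2272 of 2424 lower ones matched a RefSeq gene, so labels without a match were more frequent among those higher in ES cells. With RefSeq genes alone the median of all genes was 0.07 on the log2 scale.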
